A study of Mus musculus with 2 samples.

Results

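The 8 genes described here are long noncoding RNAs that are kept in the nucleus or enriched in brain: Malat1, Neat1, Miat, Rmst, Snhg11, Pantr1, Sox2ot and Dlx6os1. They were taken by gene symbol from the 55536 annotated genes in the tables, together with their 66 annotated transcripts. Of the 8, 7 belong to a long noncoding class in the annotation, and Snhg11 is annotated there as protein-coding. The symbol Dlx6os1 names a second gene identifier of 146 bases, which had 0 reads in both libraries and is not counted among the 8. The samples were left cerebral cortex from 2 female B6CASTF1/J mice, which are first-generation hybrids of C57BL/6J and CAST/EiJ, at 10 days of age. Total RNA (300 ng per library, with ERCC spike-ins) was sequenced, with 29867112 expected reads in genes for replicate 1 and 31031340 for replicate 2. The labels give the animals as separate biological replicates of a single group with no treatment, and the sources used here do not say whether they were littermates. With n = 2 the smallest exact two-sided p is 0.5, so no p-value was computed and each difference below describes these animals only.

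Long noncoding RNAs are transcribed and often spliced like messenger RNAs but are not known to be translated, and many act where they are made. Malat1 and Neat1 lie next to each other in the genome and belong to different nuclear bodies, the speckles that hold splicing factors and the paraspeckles that Neat1 itself scaffolds. Miat, also called Gomafu, forms a further nuclear compartment in neurons. Rmst, Sox2ot, Pantr1 and Dlx6os1 are tied to transcription factors of neural development, by binding one or by lying beside its gene, and Snhg11 is a host gene of small nucleolar RNAs that is abundant in neurons.

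The 3′ ends of Malat1 and the long Neat1 transcript are shown because they carry the element that sets these RNAs apart from polyadenylated transcripts: U-rich stretches pair with an A-rich tail into a triple helix that protects the end. Capitals mark the U-rich motif TTNCTTTT and the A-rich motif AAAGCAAAA, in DNA letters, 5′ to 3′ on the transcript strand. The Malat1 window is bases 6592 to 6691 of the 6983 in Malat1-201, at mm10 chr19:5795982-5796081 on the minus strand, in the single exon. The Neat1 window is the last 100 bases of the 20771 in Neat1-201, at mm10 chr19:5824708-5824807 on the minus strand, also in a single exon.
Malat1-201 3′ window: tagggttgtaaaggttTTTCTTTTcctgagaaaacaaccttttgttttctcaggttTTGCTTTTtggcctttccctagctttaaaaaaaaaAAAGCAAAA
Neat1-201 3′ window: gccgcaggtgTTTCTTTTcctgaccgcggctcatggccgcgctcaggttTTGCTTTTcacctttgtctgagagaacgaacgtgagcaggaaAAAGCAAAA
Both windows held 3 motif copies, a pair of U-rich ones and the A-rich one. An A-rich motif with a U-rich motif in the 100 bases that it closes was found on the transcript strand of 5 of 15671 long noncoding transcripts (0.0319%). Besides Malat1-201 and Neat1-201 these were 2 transcripts of Jpx and 1 of 6430573P05Rik. The short Neat1-202 transcript ends before this window and did not hold the pair.

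Miat is shown for its repeats of TACTAAC, the sequence of the intron branch point that the splicing proteins SF1 and QKI recognise. Both stretches lie in exon 7 of 7 of Miat-201 on the minus strand of mm10 chromosome 5, at chr5:112217309-112217460 and chr5:112216752-112216812, and capitals mark each TACTAAC.
Miat-201 repeat stretch 1: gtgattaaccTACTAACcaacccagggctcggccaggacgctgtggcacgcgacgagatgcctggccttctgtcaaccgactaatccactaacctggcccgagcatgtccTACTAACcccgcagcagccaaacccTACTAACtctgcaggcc
Miat-201 repeat stretch 2: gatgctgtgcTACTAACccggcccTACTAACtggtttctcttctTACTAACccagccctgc
Miat-201 held 6 copies in 8758 bases, or 0.685 per kb. TACTAAC was present on the transcript strand of 3.04% of the 15671 long noncoding transcripts, and 6 or more copies were present in 3 of them: Miat-201, Miat-205 and AC154442.1-202. The limit of 6 is the count of Miat-201 itself, and longer transcripts have more room for copies. Of the 151 long noncoding transcripts of 5 kb or longer, 2 (1.32%) held 6 or more, and both were the Miat transcripts. AC154442.1-202 held its 6 copies in 1389 bases, so more densely than Miat-201. Among the transcripts that led the other 7 genes by reads, the motif was found in Neat1-201 only, in 1 copy.

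Malat1 was by far the most abundant of the 8. Its level was 2989 TPM in replicate 1 and 2032 TPM in replicate 2, where TPM is a length-normalised share of all transcripts (mean 2510 ± 677, SD, n = 2). It ranked 16 among all genes and 4 among the long noncoding genes by mean alignment-based TPM. Its rank among all genes was 26 by alignment-free TPM and 22 by reads per kb of merged exons. It took 0.628% and 0.450% of all gene reads. Snhg11 followed with 277 and 199 TPM and Miat with 153 and 109 TPM. Pantr1 stood at 76.6 and 82.0 TPM. The remaining genes were all under 10 TPM in both libraries: Sox2ot at 9.71 and 7.85, Rmst at 9.33 and 6.08, Dlx6os1 at 8.94 and 6.05, and Neat1 at 5.46 and 3.74. All 8 genes reached 1 TPM in both libraries, as did 706 of the 10155 genes of long noncoding classes. At this depth 3 reads, the most that a count of 0 allows, correspond to 0.16 and 0.147 TPM for a transcript of 1 kb.

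The order of the 8 levels was the same in both libraries by alignment-based TPM. By alignment-free TPM Rmst stood above Sox2ot in replicate 1, and Miat was only 1.01-fold above Pantr1 in replicate 2. By alignment-based TPM Malat1 exceeded Snhg11 by 10.8-fold and 10.2-fold within a library, and Pantr1 exceeded Sox2ot by 7.89-fold and 10.4-fold. By alignment-free TPM the first step was smaller, at 4.99-fold and 4.91-fold, and the second was 7.52-fold and 8.77-fold. The ranges of alignment-based TPM over the 2 animals overlapped for Sox2ot and Rmst and for Rmst and Dlx6os1. These neighbours in the order were not separated beyond their spread in that unit. The other 5 steps did not overlap. Neat1 was the lowest by TPM in both quantifications. In reads per kb of merged exons, scaled to library size, its mean of 0.973 was above those of Sox2ot (0.946) and Rmst (0.727). In replicate 2 alone Neat1 was below Sox2ot in this unit, at 0.733 against 0.897. Dlx6os1 stood apart here, at 3.31 in replicate 1 and 2.40 in replicate 2. Sox2ot was at 0.994 and 0.897, and Rmst at 0.98 and 0.475. The mean of Pantr1 was 5.40 against 57.2 for Miat, a wider gap than by TPM. The Neat1 gene ends 22035 bases upstream of the start of Malat1, on the same strand. The alignment-based TPM of Malat1 exceeded that of Neat1 by 547-fold and 543-fold. In alignment-free TPM the gap was smaller, with Malat1 at 1987 and 1439 and Neat1 at 7.22 and 5.08. Together the 8 genes took 0.787% of gene reads in replicate 1 and 0.568% in replicate 2, and Malat1 alone made up 79.9% and 79.1% of those.

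**Figure D1:**
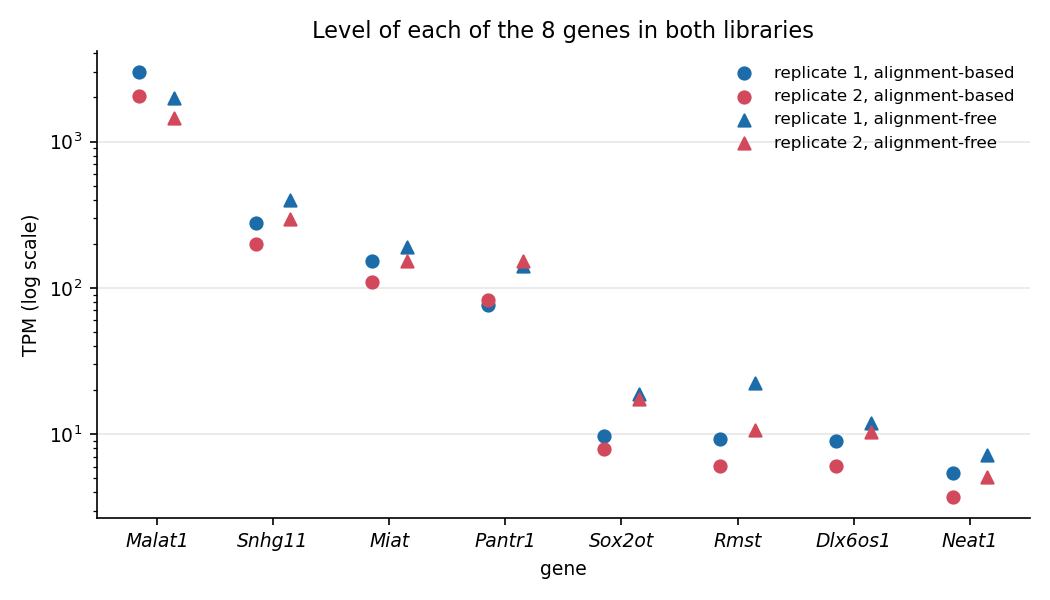
TPM of each gene on a log scale, with circles for the alignment-based and triangles for the alignment-free quantification, and blue for replicate 1 and red for replicate 2. Malat1 lies between 1439 and 2989 TPM, Snhg11, Miat and Pantr1 lie between 76.6 and 398, and the other 4 genes lie between 3.74 and 22.2.

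Malat1 is the RNA of nuclear speckles, where it is thought to influence splicing and the expression of synaptic genes in neurons. The gene (mm10 chr19:5795690-5802672, minus strand) has 4 annotated transcripts, and its TPM depended on how reads were shared among them. The full-length, unspliced Malat1-201 of 6983 bases was listed at 1339 and 909 TPM, which was 44.8% of the gene's TPM on average. The rest went to Malat1-202 (655 and 429 TPM), Malat1-204 (689.7 and 536 TPM) and Malat1-203 (305 and 158 TPM), which are 556, 656 and 485 bases long and consist wholly of sequence that Malat1-201 also contains. By reads, Malat1-201 held 91.9%, because a short transcript reaches a high TPM with few reads. The alignment-free tables gave Malat1-201 99.9% of the gene's TPM and the gene 1987 and 1439 TPM.

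After centring each library on its median protein-coding gene, Malat1 was the only one of the 8 for which the quantifications stood more than 2-fold apart in both libraries. Its alignment-free over alignment-based ratio was 0.454 and 0.459. For comparison, 0.619% of 14388 genes were lower past 2-fold in both libraries. The other 7 genes lay between 0.852 and 1.63. Without centring Malat1 stood at 0.665 and 0.708, inside the limit, since the median protein-coding gene was 1.46-fold and 1.54-fold higher in the alignment-free tables. Rmst then stood at 2.38 and 1.75 and Sox2ot at 1.92 and 2.20, past 2-fold in 1 library each, and none of the 8 passed it in both.

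Neat1 (mm10 chr19:5824708-5845478, minus strand) scaffolds paraspeckles with its long transcript, while the short transcript shares its 5′ part and is not enough to build them. The short Neat1-202, of 3004 bases, held 73.7% and 74.7% of the gene's TPM, at 4.03 and 2.80 TPM. The long Neat1-201 of 20771 bases was listed at 1.38 and 0.72 TPM, or 25.2% and 19.2%. By reads the order was the opposite: 533 and 303 reads were assigned to Neat1-201, against 219 and 167 to Neat1-202. The alignment-free tables gave the same order on both scales, with Neat1-202 leading by TPM at 60.2% and 66.3% and Neat1-201 leading by reads. Neat1-202 lies wholly inside Neat1-201, so reads from their shared part can be assigned to either.

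**Figure D2:**
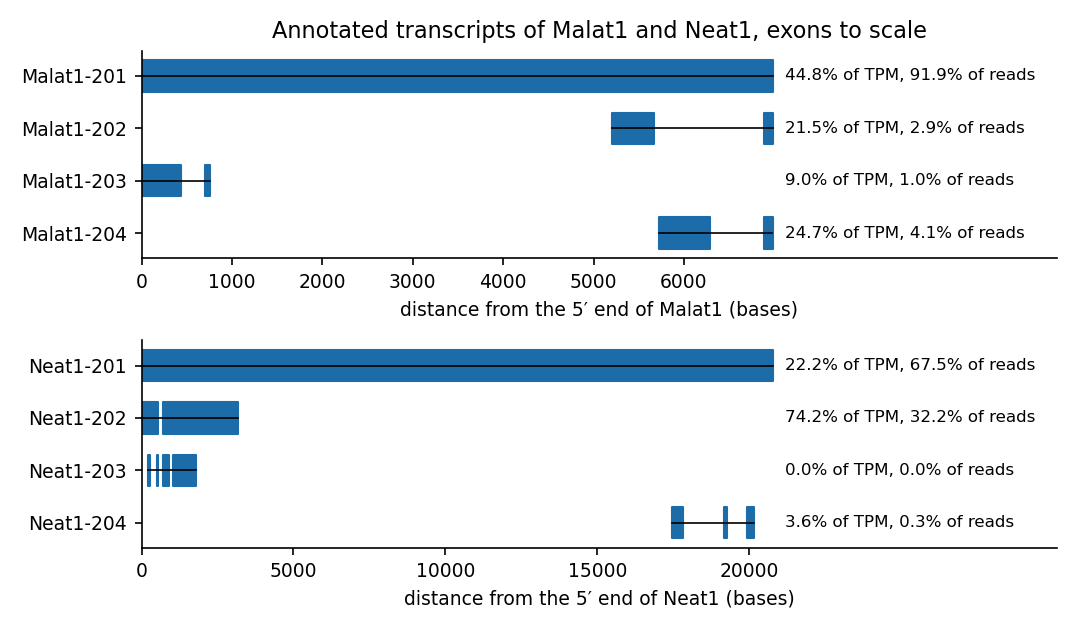
Exons of the annotated Malat1 and Neat1 transcripts drawn to scale against the distance in bases from the 5′ end of the gene, each with its mean share of the gene's alignment-based TPM and expected reads over the 2 libraries. The shorter transcripts lie inside the long one, and apart from Neat1-203, listed at 0, their share of TPM exceeds their share of reads.

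Genes for the protein partners of these nuclear bodies were expressed in both animals. All 18 listed nuclear speckle genes, which encode splicing factors and their regulators such as Srrm2 (274 and 231 TPM), Srsf5 and Son, passed the filter of a mean of 20 reads. All 17 listed paraspeckle genes passed it too, among them Hnrnpk (374 and 322 TPM), Matr3, Sfpq and Nono, the last 2 being core paraspeckle proteins. None of either list had a ratio of replicate 2 over replicate 1, in scaled reads, under 0.8 or over its inverse. Of protein-coding genes with a mean of 100 reads or more, 2.53% were under 0.8 and 2.48% over its inverse. Below 1 were 15 of the 18 and 13 of the 17, against 47.7% of all genes past the filter of 20. In TPM as deposited, 5 of each list were under 0.8, as were 18.8% of all genes. Genes for proteins known or proposed to bind the Miat repeats were expressed as well, with Qk at 147 and 136 TPM, Sf1 at 87.7 and 82.3 TPM and Celf3 at 128 and 127 TPM, and 0 of the 6 listed binders passed these limits.

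Miat (mm10 chr5:112213228-112229395, minus strand) was led by Miat-201, the transcript with the repeats printed above. It was listed at 101 and 76.2 TPM, or 66.0% and 69.7% of the gene's TPM, and held 92.4% and 92.9% of its reads. The shorter Miat-202, of 747 bases, ends before the exon with the repeats and held 19.4% and 16.6% of the TPM with 2.04% and 1.65% of the reads. Gm27627, a miscellaneous RNA annotated inside Miat on the same strand, was listed at 67.5 and 47.8 TPM from 64.4 and 49.9 reads, and was listed at 0 in the alignment-free tables. Reads from the sequence that Miat and this entry share can be assigned to either.

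Sox2ot overlaps Sox2, the transcription factor of neural stem cells, on the same strand, in a locus of 578350 bases (mm10 chr3:34104270-34682619, plus strand). Sox2ot stood at 9.71 and 7.85 TPM and Sox2 at 19.6 and 17.8 TPM, so the noncoding gene was at 0.496 and 0.44 of the coding one. Its 18 annotated transcripts shared 344 and 323 reads, of which Sox2ot-206 held 48.5% and 48.0%. In the alignment-free tables Sox2ot-206 led replicate 1 and Sox2ot-217 led replicate 2, at 27.0% of TPM. Rmst (mm10 chr10:92071037-92165170, minus strand) encodes an RNA that binds SOX2 protein in neural progenitors. It had 217 reads in replicate 1 and 109 in replicate 2, spread over 14 transcripts, and was the gene whose leading transcript by alignment-based TPM differed between the libraries, Rmst-205 in replicate 1 and Rmst-201 in replicate 2. By alignment-free TPM Rmst-205 led in both. By reads Rmst-210 led in both, at 33.3% and 37.9%. Rmst-201 rested on 4.21 and 12.9 reads, which limits what its TPM can show.

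Among 9 genes listed around Sox2 (Sox2, its relatives Sox1 and Sox3, and progenitor and glial genes), none had a ratio under 0.8 and 1, the Notch target Hes1, was just over the upper limit at 1.253, against 5.52% of all genes. By alignment-free counts Pax6 was also under 0.8, at 0.768, and in deposited TPM none of the 9 passed a limit, with Hes1 at 1.09. Vim, Hes5 and Sox2 were the highest of them, and Sox3 was the lowest at 1.55 and 1.37 TPM.

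Pantr1 starts 926 bases from Pou3f3, on the opposite strand, and is known in cortical development together with this POU-domain factor of upper-layer neurons. Pantr1 (mm10 chr1:42590782-42694842, minus strand) stood at 76.6 and 82.0 TPM and Pou3f3 at 32.9 and 35.1 TPM, a ratio of 2.33 and 2.34 within the libraries. The reads ran the other way, with 678 and 790 for Pantr1 and 4503 and 5251 for Pou3f3, since the leading Pantr1 transcripts are short. Pantr1-212 of 499 bases led in the alignment-based tables with 41.9% and 42.8% of TPM. Pantr1-209 of 615 bases led in the alignment-free tables with 40.1% and 52.4%, and Pantr1-207 was listed at 31.0 and 35.7 TPM there but at 0 in the alignment-based tables. Of the 4 class III POU genes, 1 was over the upper limit in replicate 2, Pou3f1 at 1.35, which in deposited TPM was just short of it at 1.247.

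Dlx6os1, also known as Evf2, is transcribed antisense across Dlx6 from an enhancer of the Dlx5 and Dlx6 genes, which direct the development of GABAergic interneurons. Dlx6os1 (mm10 chr6:6820189-6871592, minus strand) was listed at 8.94 and 6.05 TPM, above Dlx6 at 4.99 and 3.81 TPM and Dlx5 at 3.64 and 3.17 TPM in both libraries. Dlx6os1-202 of 4446 bases led in the alignment-based tables with 56.6% and 51.1% of TPM and 80.5% and 71.5% of reads. Dlx6os1-203 of 524 bases held 33.4% and 32.2% of that TPM, and by alignment-free TPM it led in replicate 2, at 40.4% against 31.3% for Dlx6os1-202. The labels describe the spike-ins as meant for stranded libraries, but the sources used here do not give whether counting used strand. If it did not, reads of Dlx6os1 and Dlx6 in the overlap cannot be told apart. Of 12 listed Dlx and interneuron genes, all passed the filter and none passed the limits in scaled reads. In deposited TPM 2 were under 0.8, Gad1 at 0.725 and Dlx6 at 0.764. The highest were Gad1 (79.7 and 57.8 TPM), Slc32a1 and Gad2, which make or load the transmitter GABA, and the lowest was Sp9 (1.69 and 1.67 TPM).

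Snhg11 (mm10 chr2:158375638-158386145, plus strand) was carried by Snhg11-201 of 5864 bases, at 241 and 164 TPM. This transcript held 87.2% and 82.3% of the gene's TPM, 96.1% and 95.4% of its reads, and 91.7% and 90.6% of its alignment-free TPM. Snhg11 exceeded its protein-coding neighbours Ralgapb, a GTPase-activating subunit, by 6.68-fold and 5.43-fold, and Lbp, which was at 1.05 and 0.99 TPM. A small nucleolar RNA entry inside it, Gm25129, had 2 and 3 reads.

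Over the 8 genes, the leading transcript by alignment-based TPM was the same in both libraries for 7, and in both libraries and both quantifications for 4: Malat1, Neat1, Miat and Snhg11. In 11 of 18 pairs of a gene with a protein-coding neighbour or overlapping coding gene, the noncoding gene was the higher in both libraries.

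**Figure D3:**
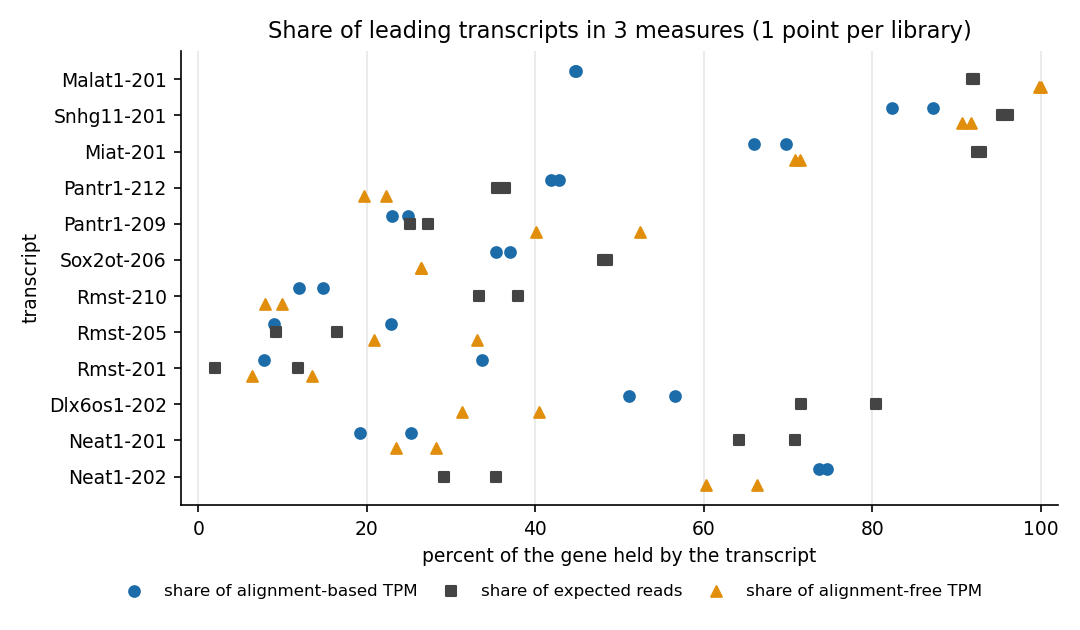
Percent of each gene held by its leading transcripts, with 1 point per library for the share of alignment-based TPM (circles), expected reads (squares) and alignment-free TPM (triangles). Malat1-201 moves from 44.8% by TPM to 91.9% by reads, and Neat1-202 and Neat1-201 change places between TPM and reads.

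Replicate 2 was lower than replicate 1 for most of the 8 genes. Ratios were computed in expected reads scaled by TMM, a library scaling by edgeR, and are replicate 2 over replicate 1 with a 95% exact binomial interval that covers counting error only. Malat1, with 187617 and 139499 reads, had a ratio of 0.736 (0.731 to 0.741). Snhg11, with 27061 and 20274 reads, stood at 0.742 (0.728 to 0.755). At such depths the counting interval is narrow, and it does not include the spread expected between animals.

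Rmst had the lowest ratio, 0.4998 (0.391 to 0.629), from few reads. Neat1, with 753 and 472 reads, stood at 0.622 (0.552 to 0.697), and Dlx6os1, with 511 and 385 reads, at 0.746 (0.652 to 0.853). Miat, with 17726 and 14552 reads, was at 0.813 (0.795 to 0.831), just short of the limit of 0.8. Sox2ot was at 0.928 (0.796 to 1.09), an interval that includes 1. Pantr1 was the exception in direction, at 1.15 (1.04 to 1.28), and its neighbour Pou3f3 was also at 1.15.

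The ratio was below 1 for 7 of the 8 genes, against 47.7% of 16459 genes with a mean of 20 reads or more and 65.7% of long noncoding genes. It was under 0.8 for 5 of the 8, against 10.1% of all genes past that filter. Among the 916 long noncoding genes that passed this filter the share was 29.9%, and among protein-coding genes it was 4.98%. The 5 were Malat1, Neat1, Rmst, Snhg11 and Dlx6os1. Malat1 (0.736), Snhg11 (0.742) and Dlx6os1 (0.746) lay at similar distances inside the limit, and the counting interval of Dlx6os1 (0.652 to 0.853) included 0.8. Miat lay just outside at 0.813. Past 1.5-fold lower there were 2, Neat1 and Rmst, against 4.33% of all genes and 12.8% of long noncoding genes. None of the 8 was higher by over 25%, against 5.52% of all genes. All 8 had a mean of over 100 reads, and at that depth 3.9% of all genes and 20.1% of long noncoding genes had a ratio under 0.8.

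The median log2 ratio of the 8 genes was -0.43, beside 0.01 for all genes and -0.13 for the long noncoding genes. With TPM as deposited, 6 of the 8 had a ratio under 0.8, Miat being added, beside 18.8% of all genes and 40.3% of long noncoding genes, and the median of all genes was then -0.11. Lower genes then made up 81.0% of all genes past the limit in either direction, against 64.7% with TMM. Rmst stood at 0.652 in deposited TPM and 0.4998 in scaled reads, and its leading transcript by alignment-based TPM was 997 bases long in replicate 1 and 407 in replicate 2.

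**Figure D4:**
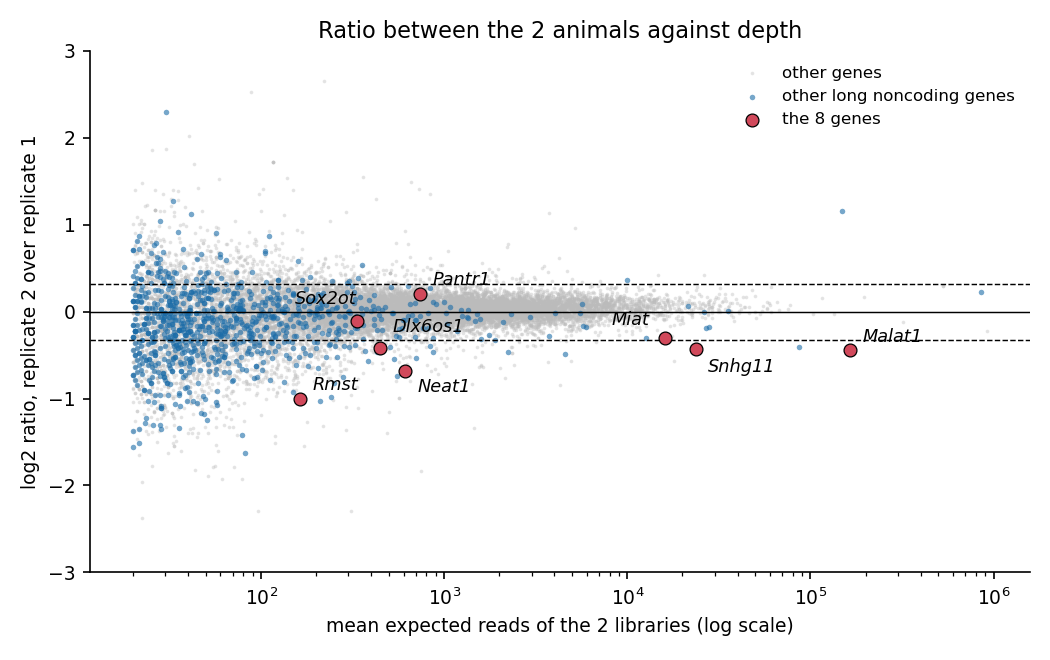
Log2 ratio of replicate 2 over replicate 1 in TMM-scaled reads against mean expected reads for 16459 genes, with the 8 genes in red, other long noncoding genes in blue and the rest in grey, and dashed lines at ratios of 0.8 and its inverse. Of the 8, 7 lie below 0 and Pantr1 above, and 17 genes fall outside the drawn range.

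Other long noncoding RNAs were read from a list of imprinted, host-gene and brain RNAs. Of 26 on the list, 25 were found and 23 passed the filter, and 6 of these had a ratio under 0.8 and 0 were over the upper limit, with a median log2 ratio of -0.19. By alignment-free counts 3 of the list were under 0.8, and 5 of the 8 genes beside 526 of 1383 long noncoding genes. Meg3, an imprinted RNA and the highest of the list at 1625 and 1210 TPM, had a ratio of 0.754, close to that of Malat1. Rian and Snhg14, the next highest, were at 0.879 and 0.812, Snhg1 was the only passing gene beyond 1.5-fold at 0.64 but stood at 0.817 by alignment-free counts, and Hotair had 0 reads in both libraries.

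Markers of cell types were read from the same libraries. In bulk tissue, fewer cells of a type and less RNA per cell cannot be told apart. The cortical label was matched by the glutamatergic gene Slc17a7 at 522 and 501 TPM and the pan-neuronal Snap25 at 594 and 589 TPM. None of the 5 pan-neuronal, 5 GABAergic, 6 astrocyte, 4 oligodendrocyte precursor, 4 microglial and 3 endothelial markers passed the limits in scaled reads. All 6 oligodendrocyte markers were higher in replicate 2, between 1.72-fold for Cnp and 2.81-fold for Mobp, and their summed level was 196 TPM in replicate 1 and 389.7 TPM in replicate 2. Of 5 striatal markers 3 had a ratio under 0.8, or 2 by alignment-free counts, with a summed level of 76.0 and 55.1 TPM. The 3 choroid plexus markers that passed were over the upper limit, or 2 by alignment-free counts, led by Ttr at 3.98 and 9.70 TPM. Transcripts annotated as retained introns took 3.43% of the first library's reads and 2.90% of the second's. The long noncoding classes took 5.09% and 5.41% of reads, or 2.18% and 1.79% without their entries Gm26917 and Gm42418, which were left out after their values were seen. The part of any of these values in the ratios of the 8 genes was not tested.

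**Figure D5:**
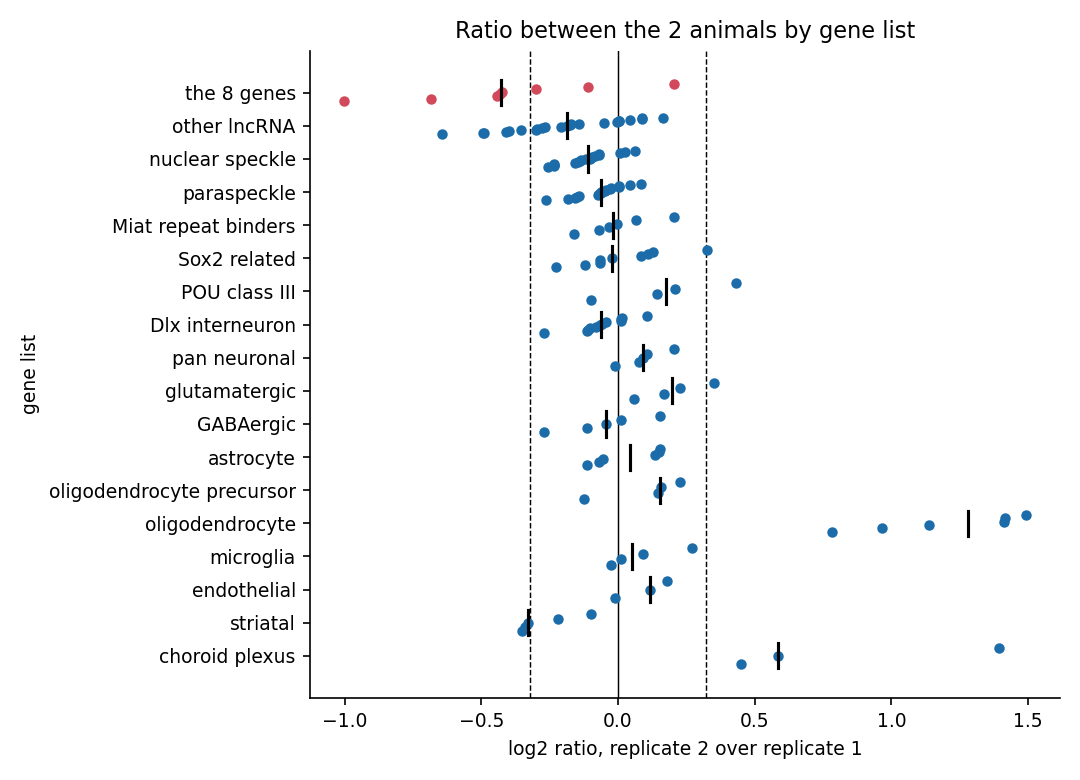
Log2 ratio of replicate 2 over replicate 1 in TMM-scaled reads for each gene of each list (points), with the list's median as a black bar and dashed lines at ratios of 0.8 and its inverse. The 8 genes have a median of -0.43, other long noncoding RNAs of -0.19, and the oligodendrocyte markers lie furthest to the right.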

How the data were processed

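Total RNA of 2 libraries, the only group, was analysed as deposited. The authors made expected counts and TPM per gene and transcript from transcriptome alignments to mm10 with annotation M21, and, separately, estimated counts and TPM per transcript straight from the reads, per the deposited README files. The quantification tools, their versions and the level of the credible intervals: not given in the sources used here. Alignment-free values were summed per gene. Symbols, gene types, exons and sequences came from GENCODE M21, which matched by versioned identifier. Spike-ins (96 entries, 123846 and 124915 reads) and entries named only by a number (6.88 and 1 reads) were left out of gene totals.

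Levels are mean TPM with the SD. Ratios between libraries are log2 of expected counts with 0.5 added, scaled by TMM (edgeR 4.0.16, R 4.3.3), for genes with a mean of 20 reads or more, with limits at a ratio of 0.8 or its inverse (25% higher) and at 1.5-fold. Intervals are exact binomial (95%). Quantifications were compared by centred TPM ratios with a 2-fold limit, for genes at 1 TPM or more. No test was made. The ratio step was tested on simulated data with the same set dispersion for all genes. A first test on a single simulated pair missed its tolerance. After this was seen it was replaced by a mean over several simulated pairs, which passed. Alternatives included DESeq2 1.42.0 size factors, spike-in scaling and other filters. Python 3.11.15 was used with pandas 2.3.3, scipy 1.17.1, numpy 2.4.6 and, for figures, matplotlib 3.10.9.

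The genes, lists, limits and rules were chosen with earlier results of these data known. All 8 genes are named, with transcripts that led in a quantification or held 10% in both libraries, coding neighbours, overlapping genes at 1 TPM or more, and each list's 3 highest, its lowest and those past 1.5-fold; some that the rule takes are summarised as counts or not reported here, and Hes1, Pou3f1 and a few examples are named after their values were seen.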

Additional observations from a re-analysis of the deposited data

How the results depend on the processing

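The 5 genes with a ratio under 0.8 numbered 5 again with DESeq2 size factors, spike-in scaling, alignment-free counts, no filter and 5 added to each count, and 6 with TPM as deposited. They numbered 5 also under alternatives chosen after seeing the data, a filter of 100 mean reads and DESeq2 size factors over genes with a mean of 20 reads or more. The second was added since the DESeq2 factors over all genes were 1 in both libraries, which left the counts unscaled. No direction changed for any of the genes called. Of all genes, 1665 of 16459 (10.1%) were under 0.8. This was 3097 of 16459 (18.8%) with TPM as deposited and 2455 of 17687 (13.9%) with alignment-free counts. It was 6915 of 55536 (12.5%) with no filter and 495 of 12689 (3.9%) with a filter of 100 mean reads. Of long noncoding genes it was 274 of 916 (29.9%), against 526 of 1383 with alignment-free counts, 1952 of 10155 (19.2%) with no filter and 59 of 293 (20.1%) with the filter of 100.

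The median level of the 8 genes was 44.1 TPM, and 43.2 to 44.9 TPM with either replicate left out. This median is the midpoint of Pantr1 and Sox2ot, and Pantr1 was the gene that was higher in replicate 2. The summed level of the 8 genes did differ, at 3528 TPM in replicate 1 and 2446 TPM in replicate 2. The median was 82.0 TPM in the alignment-free tables and 83.0 TPM when TPM was rescaled over nuclear protein-coding and long noncoding genes. In reads per kb of merged exons, scaled to library size, another unit added after seeing the data, it was 4.13. The count of 1 gene past 2-fold between quantifications was 0 without centring, and 1 with either replicate left out or with 10 TPM required. The leading transcript was the same between libraries for 7 genes, for 6 by alignment-free TPM and for 8 by reads. No paired analysis was possible because both libraries belong to 1 group. Rmst, with 217 and 109 reads, is the gene that depth limits most.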

Other observations

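The gene tables list credible bounds beside each TPM. For Malat1 the listed TPM lay above its own upper bound in both libraries, 2989 against 2925 in replicate 1 and 2032 against 1999.6 in replicate 2. Snhg11 did so too, at 277 against 273 and 199.07 against 198.7 TPM, and Sox2ot lay below its lower bound in replicate 2, at 7.85 against 7.99 TPM. Of 14947 genes at 1 TPM or more in both libraries, 570 lay above the upper bound in replicate 1 and 506 in replicate 2, while 199 and 228 lay below the lower bound.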
